A study of Homo sapiens with 6 samples.

Results

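The 10 genes described here encode factors that drive or restrain epithelial-mesenchymal transition (EMT). They were chosen by name: the EMT transcription factors SNAI1, SNAI2, ZEB1, ZEB2 and TWIST1, and the epithelial regulators GRHL1, GRHL2, ESRP1, ESRP2 and OVOL1. Each was read from its entry on a primary chromosome, and together they make up 10 of the 41497 named entries in the gene tables. Of the 10, 7 had enough reads to be tested, among 14860 entries tested in all. GRHL2 and OVOL1 had 0 reads in every library, and ESRP1 had 1 to 4 reads per library.

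RNA was sequenced from wild-type HK2 (HK-2) cells, derived from human proximal tubular epithelium of the kidney and immortalised, either left untreated (control) or exposed to TGF-β1. Both groups were collected at 24 h, with 3 libraries each. The labels give DMEM-F12 with 10% serum for maintenance, and the general methods of the study give serum-free medium during TGF-β exposure. Whether the controls were kept without serum as well is not stated, and a difference in serum cannot be told apart from the treatment. RNA was taken in bulk from all cells of a culture, so a change in a gene's level cannot be assigned to fewer expressing cells or to less RNA per cell. HK-2 is 1 line, no dose is stated specifically for the sequenced cells, and nothing states that the 3 libraries of a group came from separate cultures, so each p-value measures the spread between these libraries, which may be technical.

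SNAI1 (Snail), SNAI2 (Slug), ZEB1 and ZEB2 are zinc-finger repressors that bind E-box DNA in the promoters of epithelial genes, and TWIST1 is a basic helix-loop-helix factor of the same programme. The grainyhead-like factors GRHL1 and GRHL2 and the zinc-finger factor OVOL1 maintain epithelial genes and oppose the ZEB proteins, while ESRP1 and ESRP2 are RNA-binding proteins that select epithelial exons. TGF-β is a classical inducer of the repressors, and in the kidney tubule this programme has been studied for its link to fibrosis.

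The libraries held 21938622 to 26906067 counts in genes. The response of known TGF-β targets matched the labels, since SMAD7, SKIL, TGFBI and CCN2 rose, with log2 fold changes of 1.08 to 2.33. TGF-b1 replicate 1 stood apart from the other TGF-b1 libraries: its counts differed from theirs by a chi-square of 16.9 to 18.2 per degree of freedom, against 4.35 between replicates 2 and 3 and 4.33 to 5.93 among the controls. Of 11 proximal tubule markers 6 were tested, and LRP2, the megalin receptor, had 0 reads in every library. The summed level of those markers was 318 to 353 CPM (counts scaled to a common library total) in control and 200 to 231 in TGF-b1 libraries, with 4 of the 6 called lower and 2 higher (AQP1 at a log2 fold change of 2.10 and CUBN at 0.82). KRT8 and KRT18 together went from 666 to 708 up to 995 to 1148 CPM. Of 4 genes each, endothelial markers summed to 0.858 to 1.60 and then 0 to 0.0384 CPM, fibroblast markers to 58.8 to 68.4 and then 56.6 to 57.7 CPM, and immune markers to 92.3 to 102 and then 61.0 to 84.6 CPM. Only 1 of the 4 immune markers had enough reads to be tested (log2 fold change -0.44), and 1 had 0 reads in every library. The fibroblast sum was mostly LUM (-0.28), while PDGFRB, the other tested marker of that list, rose by 3.38 on the log2 scale, from 39 to 413 reads. The 3 collecting duct markers did not exceed 0.0409 CPM. The part of these markers in the results below was not tested.

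Promoter sequence was at hand for GRHL1, ZEB1 and ZEB2 among the 10 genes. The windows below are shown because GRHL1 and ZEB2 fell after TGF-β1, as did ELF3, an epithelial transcription factor, whereas DSP, the desmosomal plaque gene desmoplakin, rose. They were taken from RefSeq on GRCh38.p14 and cover at most 250 bases upstream of the annotated start, without exonic bases, each written 5′ to 3′ on the gene's own strand. Capitals mark CACCTG or CAGGTG, the E-box bound by SNAI and ZEB proteins, which is 1 motif read on either strand. The GRHL1 window is chr2:9951443-9951692 on the plus strand, ZEB2 is chr2:144520120-144520369 on the minus strand, ELF3 is chr1:202010337-202010582 on the plus strand and DSP is chr6:7541421-7541670 on the plus strand.
GRHL1: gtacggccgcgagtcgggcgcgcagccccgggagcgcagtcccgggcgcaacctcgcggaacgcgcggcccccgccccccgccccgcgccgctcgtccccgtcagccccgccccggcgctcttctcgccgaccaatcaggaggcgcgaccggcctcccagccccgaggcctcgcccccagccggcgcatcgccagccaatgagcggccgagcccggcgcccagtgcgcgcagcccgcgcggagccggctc
ZEB2: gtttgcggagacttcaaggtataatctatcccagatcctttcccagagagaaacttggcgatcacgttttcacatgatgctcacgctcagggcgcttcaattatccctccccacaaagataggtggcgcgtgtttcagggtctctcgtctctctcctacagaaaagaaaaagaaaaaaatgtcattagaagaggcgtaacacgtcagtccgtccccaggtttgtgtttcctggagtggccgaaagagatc
ELF3: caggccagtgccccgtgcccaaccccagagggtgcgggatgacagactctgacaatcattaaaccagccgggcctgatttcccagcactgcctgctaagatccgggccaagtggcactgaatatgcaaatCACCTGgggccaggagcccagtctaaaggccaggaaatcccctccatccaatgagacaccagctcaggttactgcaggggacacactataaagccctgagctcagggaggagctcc
DSP: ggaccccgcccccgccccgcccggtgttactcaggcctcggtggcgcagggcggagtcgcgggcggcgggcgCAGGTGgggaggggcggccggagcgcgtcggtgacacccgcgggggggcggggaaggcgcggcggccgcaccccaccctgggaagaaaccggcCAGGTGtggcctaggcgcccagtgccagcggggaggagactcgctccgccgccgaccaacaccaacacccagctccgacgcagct
The GRHL1 and ZEB2 windows held no match, ELF3 held 1 and DSP held 2. ZEB1 has 7 listed starts, of which 2 had a match in their upstream window. The motif was present in 17.5% of all 35116 upstream windows of 250 bases. A match describes these letters only.

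After TGF-β1, 6 of the 7 tested genes were called at an adjusted p under 0.05, compared with 44.3% of all genes tested (edgeR quasi-likelihood test, Benjamini-Hochberg adjustment). SNAI1 and SNAI2 were higher, ZEB2, TWIST1, GRHL1 and ESRP2 were lower, and ZEB1 was not called. Across all genes 22.2% were called higher and 22.1% lower, so 2 of 7 higher is near the background and 4 of 7 lower is above it, in a set of 7 genes. Only SNAI1 changed at least 2-fold, as did 9.06% of all genes in either direction (3.68% at least 2-fold higher and 5.38% at least 2-fold lower). CPM values of the groups did not overlap for 6 of the 7, against 55.6% of all genes. The median log2 fold change was -0.24 for the 7 genes and 0.01 for all genes. With libraries scaled to total counts alone, the median of all genes moved to -0.10 and 31.7% of the calls were higher, in place of 50.05%.

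**Figure D1:**
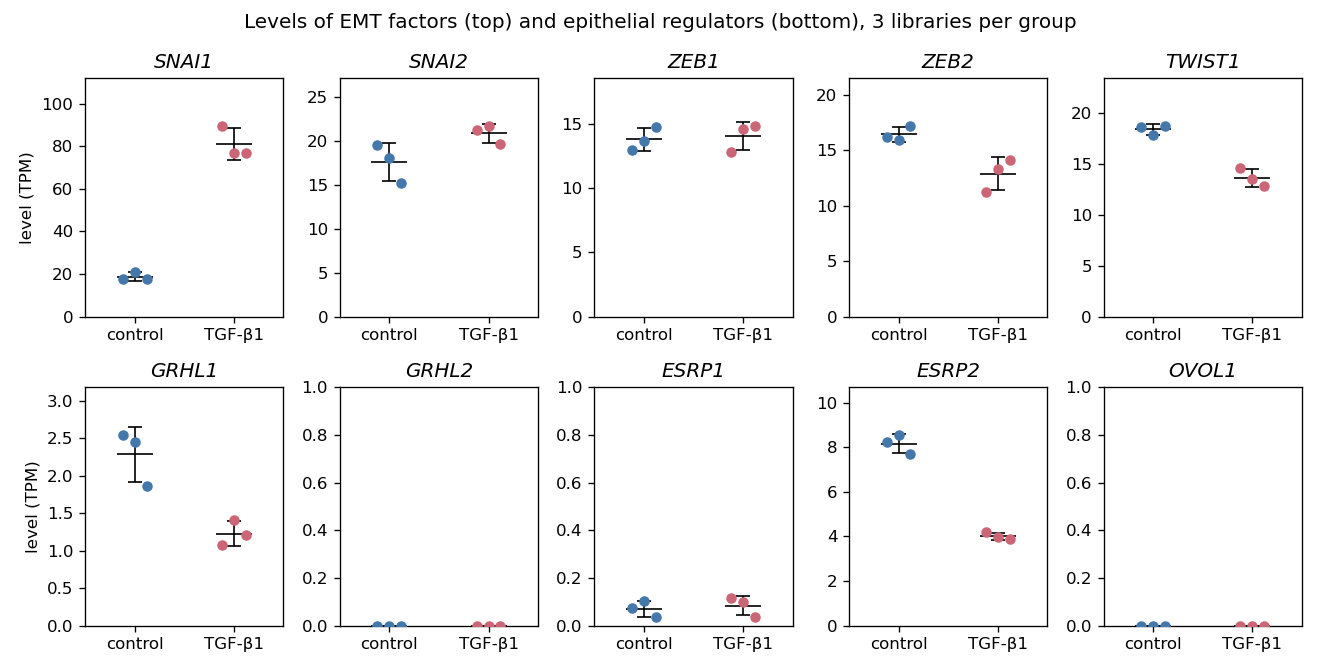
Level of each gene in TPM (y axis from 0, a separate scale for each gene) in the 3 control (blue) and 3 TGF-b1 (red) libraries; points are libraries, and the horizontal line and bars are the mean ± SD. SNAI1 separates the groups most widely, ZEB1 overlaps, and GRHL2 and OVOL1 lie at 0 in all 6 libraries.

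SNAI1 (chr20:49982980-49988886, plus strand, hg38) encodes the repressor Snail. Its level in TPM, a count scaled by gene length and library total, was 17.5, 21.1 and 17.7 in the control libraries and 89.6, 77.1 and 76.7 in the TGF-b1 libraries. All TGF-b1 libraries were far above all controls, with replicate 1 the highest. From the counts, SNAI1 rose 4.70-fold, or by 2.23 ± 0.10 on the log2 scale (SE, n = 3 per group), with an edgeR adjusted p of 5.19e-08. Leaving out 1 library at a time gave log2 values between 2.12 and 2.33.

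SNAI2, on chromosome 8, encodes Slug, the close relative of Snail. It was at 19.5, 18.1 and 15.3 TPM in control and 21.3, 21.7 and 19.6 TPM in TGF-b1 libraries. The groups did not overlap, but the highest control lay just under the lowest TGF-b1 library. The log2 fold change was 0.36 ± 0.11 (SE, n = 3 per group), and the edgeR adjusted p was 0.0174. The call was lost with total-count scaling (log2 0.26, edgeR adjusted p = 0.0693), without control replicate 3 (0.26) and without TGF-b1 replicate 2 (0.35).

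ZEB1 (chr10:31318417-31529804, plus strand) encodes a repressor with a zinc-finger cluster at each end. Its level was 13.0, 13.6 and 14.7 TPM in control and 12.8, 14.5 and 14.8 TPM in TGF-b1 libraries. The groups overlapped on this scale, and TGF-b1 replicate 1 was the lowest of the 6 libraries. The fitted log2 fold change was 0.15 ± 0.07 (SE, n = 3 per group, edgeR adjusted p = 0.0959), and without TGF-b1 replicate 1 it was 0.18 with an adjusted p of 0.0301, which passed.

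ZEB2 (chr2:144384081-144520119, minus strand), the paralog of ZEB1, was at 16.2, 16.0 and 17.2 TPM in control and 11.2, 13.3 and 14.1 TPM in TGF-b1 libraries. Every TGF-b1 library was below every control, with replicate 1 again the lowest. Its log2 fold change was -0.24 ± 0.07 (SE, n = 3 per group), and the edgeR adjusted p was 0.0205. Leaving out control replicate 1 (-0.23) or 3 (-0.22) lost the call.

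TWIST1 (chr7:19113047-19117636, minus strand) was at 18.6, 17.8 and 18.7 TPM in control and 14.6, 13.5 and 12.8 TPM in TGF-b1 libraries. The groups were apart, and the controls were close together. Its log2 fold change was -0.31 ± 0.10 (SE, n = 3 per group, edgeR adjusted p = 0.0267). DESeq2 gave -0.31 with an adjusted p of 0.087, and leaving out any library other than TGF-b1 replicate 1 also lost the call, with values of -0.33 to -0.26.

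The transcription factor GRHL1 (chr2:9951693-10002279, plus strand) was read 71, 73 and 52 times in control and 38, 44 and 33 times in TGF-b1 libraries, or 2.54, 2.45 and 1.86 against 1.07, 1.41 and 1.21 TPM. Control replicate 3 was the lowest control yet above every TGF-b1 library. GRHL1 fell by 0.78 on the log2 scale (SE 0.19, n = 3 per group, edgeR adjusted p = 0.00741), a level 1.72-fold lower.

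GRHL2 and OVOL1 could not be compared, since no read was assigned to either in any of the 6 libraries. A count of 0 allows up to 3 reads per library, which corresponds to 0.0417 to 0.0541 TPM for GRHL2 and 0.0624 to 0.0810 TPM for OVOL1. This limit covers counting error only. Their relatives were low as well: GRHL3 had 9 control and 2 TGF-b1 reads, a ratio of 0.204 (95% exact interval 0.0215 to 0.987), and OVOL2 had 28 and 21 reads, a ratio of 0.690 (0.372 to 1.26). OVOL3 had 5 and 11 reads, a ratio above 1 (2.02, 0.648 to 7.43). The exact permutation p over libraries was 0.1 for GRHL3, the smallest that 3 libraries against 3 allow, 0.2 for OVOL2 and 0.3 for OVOL3. These ratios are scaled by total counts, not by TMM, and the GRHL3 interval ends close to 1. A TMM-scaled edgeR fit of all genes that had a count gave adjusted p-values of 0.182 for GRHL3, 0.534 for OVOL2 and 0.384 for OVOL3.

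ESRP2 (chr16:68225968-68236175, minus strand), the splicing regulator expressed in these cells, was at 8.22, 8.55 and 7.72 TPM in control and 4.18, 3.99 and 3.86 TPM in TGF-b1 libraries. The libraries within each group were close, and the groups were well apart. ESRP2 fell by 0.90 on the log2 scale (SE 0.09, n = 3 per group, edgeR adjusted p = 1.1e-05), a level 1.87-fold lower. Its listed exons share 2910 bases with NFATC3 on the opposite strand, and whether counting used the strand is not stated, so some of its reads may belong to NFATC3. NFATC3 itself was at 31.9 to 34.1 CPM in control and 33.3 to 37.4 CPM in TGF-b1 libraries, a log2 difference of 0.12 ± 0.07 (SE, edgeR adjusted p = 0.157). Smaller shared stretches were 556 bases between ZEB1 and ZEB1-AS1 and 152 bases between ZEB2 and ZEB2-AS1.

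ESRP1, on chromosome 8, was read 2, 3 and 1 times in control and 4, 3 and 1 times in TGF-b1 libraries. The sums of 6 and 8 reads gave a ratio of 1.23 (95% exact interval 0.373 to 4.29, exact permutation p = 0.5), so a change up or down of a few fold was not detectable at this depth.

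Set in order by TPM, which corrects for length, SNAI1, TWIST1, SNAI2 and ZEB2 came first in control, with means of 18.8, 18.4, 17.6 and 16.4 TPM whose neighbours overlapped in range. ZEB1 (13.8 TPM), ESRP2 (8.16 TPM), GRHL1 (2.28 TPM) and ESRP1 (0.0712 TPM) followed, each separate from the gene above it. In TGF-b1 libraries SNAI1 stood alone at 81.2 TPM, and SNAI2 was next at 20.9 TPM, above all values of ZEB1, TWIST1 and ZEB2. Those 3 overlapped, with means of 14.1, 13.6 and 12.9 TPM, and ESRP2 (4.01 TPM), GRHL1 (1.23 TPM) and ESRP1 (0.0839 TPM) again followed separately.

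The 5 EMT factors summed to 84.9 ± 1.49 TPM in control and 143 ± 6.10 TPM in TGF-b1 libraries (mean ± SD, n = 3). SNAI1 was 22.1% of that sum in control and 56.9% after TGF-β1. Without SNAI1 the sum was 65.4 to 67.2 TPM in control and 59.9 to 63.0 TPM in TGF-b1 libraries. On the TMM-scaled CPM scale the same 4 genes summed to 113.3, 111.1 and 114.3 in control and 103.9, 110.3 and 113.5 in TGF-b1 libraries, which overlap. The groups were thus apart on the TPM scale alone. CPM is not corrected for length, so the long genes ZEB1 and ZEB2 weigh more in its sum, and the sums differ in more than library scaling. The 5 epithelial regulators summed to 10.5 ± 0.795 and 5.32 ± 0.199 TPM, most of it ESRP2. TPM is not adjusted for the makeup of the library, and log2 ratios on this scale lay below the fitted ones. Rises were therefore smaller and falls larger in TPM than in the fit. The log2 ratios of group means were 2.11 for SNAI1, 0.25 for SNAI2, 0.03 for ZEB1, -0.35 for ZEB2, -0.43 for TWIST1, -0.89 for GRHL1 and -1.03 for ESRP2.

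Ratios of paralogs within a library do not depend on how libraries are scaled. SNAI1 over SNAI2 was 0.899, 1.168 and 1.162 in control and 4.21, 3.56 and 3.92 in TGF-b1 libraries. Snail and Slug transcripts were thus near parity in control on the TPM scale, and Snail was in excess in every TGF-b1 library. The difference in mean log2 ratio was 1.86 (exact permutation p = 0.1, two-sided, the smallest possible here).

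ZEB1 over ZEB2 was 0.803, 0.854 and 0.858 in control and 1.14, 1.09 and 1.05 in TGF-b1 libraries. ZEB2 was the more abundant ZEB transcript in all 3 controls and ZEB1 in all 3 TGF-b1 libraries, on the TPM scale. That order rests on the listed gene lengths, 8199 bases for ZEB1 and 11678 for ZEB2, while the shift in the ratio does not. In CPM, which is not corrected for length, ZEB2 was above ZEB1 in all 6 libraries. The TGF-b1 libraries had 44.2, 49.5 and 53.2 CPM of ZEB2 against 35.4, 38.0 and 39.2 CPM of ZEB1. The log2 ratio differed by 0.39, and its SD was 0.05 in control and 0.06 in TGF-b1 libraries (exact permutation p = 0.1, two-sided, n = 3 per group). TGF-b1 replicate 1, the library that stood apart, had the highest of the 3 ratios, and the other 2 also lay above every control.

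ESRP2 was 111.8, 82.8 and 210.5 times as abundant as ESRP1 in control and 36.2, 40.4 and 103 times in TGF-b1 libraries. These groups overlapped, and the ratio rests on at most 4 ESRP1 reads per library (exact permutation p = 0.2). Among 4 paralog pairs computed, GRHL1 over GRHL2 gives no ratio because GRHL2 was at 0, and an adjustment for the number of pairs could only raise these p-values.

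**Figure D2:**
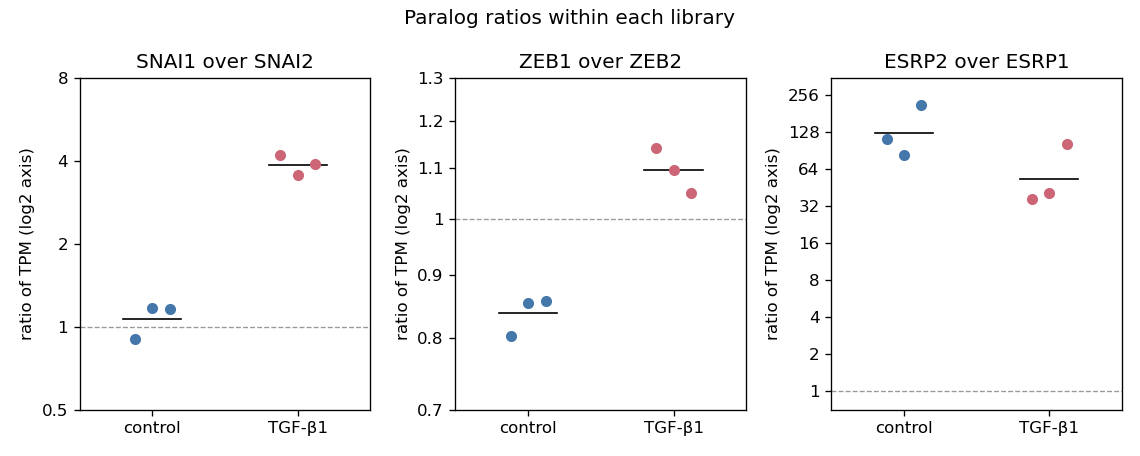
Ratio of TPM of 2 paralogs within each library (y axis, log2 scale), for control (blue) and TGF-b1 (red); points are libraries, the black line is the geometric mean, and the dashed line marks equal levels. The SNAI1 and ZEB1 ratios of the 3 TGF-b1 libraries all lie above the 3 controls, while ESRP2 over ESRP1 overlaps between groups.

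Other transcription factors of the EMT programme were read beside the 10 genes. Of 10 on a list of such factors 5 were tested, 4 rose and 1 fell (22.2% and 22.1% over all genes). Their median log2 fold change was 0.39 against 0.01 for all genes. FOXC2, a forkhead factor, was at 3.54, 3.52 and 3.07 CPM in control and 19.8, 17.7 and 16.5 CPM in TGF-b1 libraries. TCF4, an E-protein partner of TWIST1, was at 17.4, 16.6 and 17.1 CPM and then at 37.6, 50.1 and 47.4 CPM. FOXC2 rose by a log2 fold change of 2.41 ± 0.11 and TCF4 by 1.40 ± 0.10, so SNAI1 and FOXC2 were the EMT factors with the largest changes among those tested. TCF3 (0.39) and the chromatin protein HMGA2 (0.31) rose less. TWIST2, PRRX1 and GSC had 0 reads in all 6 libraries.

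Among other epithelial transcription factors, 8 of 14 were tested, 5 fell and 1 rose (22.1% and 22.2% over all genes), with a median log2 fold change of -0.68. The ETS factor ELF3, whose promoter is shown above, was the most abundant, at 215, 210 and 207 TPM in control and 67.2, 67.7 and 64.2 TPM in TGF-b1 libraries. Its groups were far apart, and it fell by 1.55 on the log2 scale (SE 0.06, edgeR adjusted p = 6.98e-09). The related factor EHF (-1.89 ± 0.46, from 10 to 15 control and 2 to 5 TGF-b1 reads), TFAP2C (-1.13 ± 0.06) and the forkhead factor FOXA1 (-1.04 ± 0.08) also fell by more than GRHL1 and ESRP2 in fitted value. KLF5 fell by 0.32, KLF4 rose by 0.64, and TFAP2A (-0.24) was not called.

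Splicing regulators linked to EMT were tested in 7 of 7 cases. RBM47, an RNA-binding protein of epithelial cells, was at 6.80, 7.92 and 7.66 TPM in control and 2.42, 3.12 and 2.64 TPM in TGF-b1 libraries, and fell by 1.34 on the log2 scale (SE 0.09, edgeR adjusted p = 8.65e-07). QKI (0.19) and PTBP1 (0.16) were called higher, while RBFOX2 (0.88 ± 0.38), HNRNPM (0.13), SRSF1 (0.07) and MBNL1 (-0.09) were not called. A count of 3 called of 7 is near the 44.3% over all genes. Leaving out 1 library gave between 1 and 5 calls in place of 3, with 1 lacking control replicate 2, 1 lacking TGF-b1 replicate 2 and 5 lacking TGF-b1 replicate 1. RBM47 kept its call each time, and QKI and PTBP1 lost theirs with total-count scaling. With 1 library left out, QKI lost its call in 4 fits and PTBP1 in 3.

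**Figure D3:**
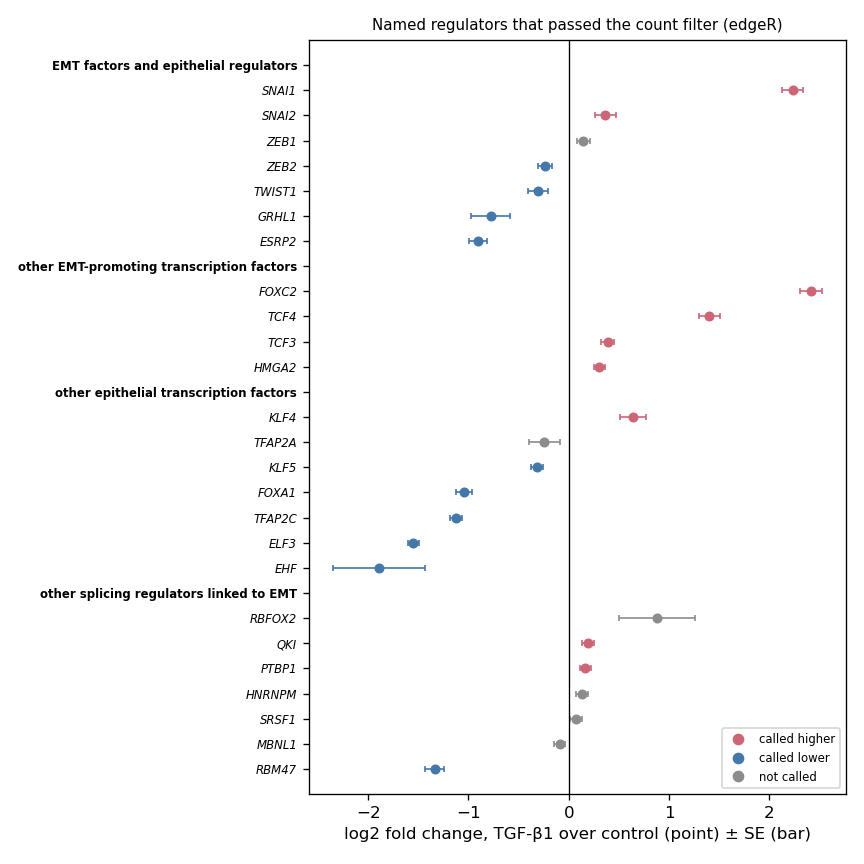
Fitted log2 fold change (x axis, TGF-b1 over control) with its SE (bar) for the tested genes among the 10 and for named genes of 3 lists of related regulators; red marks genes called higher, blue lower and grey not called at an edgeR adjusted p under 0.05. SNAI1 and FOXC2 lie farthest to the right, and ELF3, EHF and RBM47 lie to the left of ESRP2 and GRHL1.

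Genes whose exons ESRP proteins select were followed at the level of the whole gene, which does not show exon use. Of 7 tested, 2 rose, 2 fell and 3 were not called, close to the shares over all genes (22.2% higher and 22.1% lower). FGFR2, whose IIIb exon is the best known ESRP target, fell from 7.62, 7.25 and 6.80 TPM to 2.77, 2.94 and 2.58 TPM, a difference of -1.26 ± 0.09 on the log2 scale (SE, edgeR adjusted p = 9.43e-07). CD44 fell by 0.26, ENAH rose by 0.71 and NUMB rose by 0.22, the last call being lost with total-count scaling. CTNND1 (0.08 ± 0.31), ARHGEF11 (0.01 ± 0.07) and SCRIB (-0.30 ± 0.36) were not called. CTNND1 shares 5905 exonic bases with the readthrough entry TMX2-CTNND1, so its counts are uncertain.

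Junction and polarity genes, listed as candidate targets of SNAI, ZEB, GRHL or OVOL factors, were tested for 12 of 22, because 10 had too few reads. Of the 12, 7 fell, 2 rose and 3 were not called (22.1% lower and 22.2% higher over all genes), with a median log2 fold change of -0.55. The receptor gene ERBB3 (-2.63 ± 0.57) fell from 23, 15 and 25 reads to 6, 0 and 4 reads. The adhesion gene EPCAM (-1.25 ± 0.10) fell from 34.0, 37.9 and 33.7 TPM to 13.6, 14.7 and 12.4 TPM. Against this direction, DSP went from 60.3, 59.6 and 60.0 TPM to 133, 187 and 188 TPM (log2 1.61 ± 0.11), and CDS1, a lipid enzyme gene, from 8.49, 8.29 and 9.18 to 17.1, 17.2 and 17.3 TPM (1.11 ± 0.07). The 22 genes summed to 443 to 453 CPM in control and 669 to 824 CPM in TGF-b1 libraries, of which DSP alone made up 172 to 179 and 433 to 590 CPM.

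CDH1, which encodes E-cadherin and is the textbook target of Snail, was read 1, 2 and 3 times in control and 2, 1 and 0 times in TGF-b1 libraries. With 6 reads against 3, the ratio was 0.460 (95% exact interval 0.0744 to 2.15, exact permutation p = 0.2), so no difference was detectable at this depth. TJP3, a tight junction gene, had 26 control and 2 TGF-b1 reads, a ratio of 0.0707 (0.00814 to 0.283). CLDN3 had 20 and 4 reads (0.184, 0.0457 to 0.549) and LLGL2 had 13 and 2 (0.141, 0.0155 to 0.625). In all 3 genes, named after their values were seen, the libraries of the groups did not overlap in CPM (exact permutation p = 0.1 each). Groups did not overlap for 55.6% of all genes tested, and they overlapped for the other junction genes under the filter, CDH1 included. Of the other 6 junction genes under the filter, MARVELD2 (0.701) and MARVELD3 (0.634) had ratios below 1, and OCLN (10 and 11 reads), ST14 (16 and 25), RAB25 (1 and 2) and CLDN7 (0 and 1) had ratios of 1 or more, all with intervals that include 1.

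Upstream windows were at hand for 14 of the 22 junction and polarity genes, and 11 of the 14 held the E-box in at least 1 window, against 20.6% of all genes. The list was made of candidate targets of these factors, and the enrichment is no independent evidence. Genes that fell with a match were CRB3, PATJ and SPINT1, and the genes that rose, DSP and CDS1, held a match as well. A match was thus present in genes that went in either direction. Among the other epithelial factors 3 of 10 held a match, 2 of them among the 4 that fell. The match was in 0 of 6 other EMT factors and 1 of 7 mesenchymal genes. Of the corepressor and Snail turnover genes described below, 3 of 13 and 1 of 11 held it.

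Of 12 mesenchymal genes 10 were tested, 8 rose, 1 fell and 1 was not called (22.2% higher and 22.1% lower over all genes), with a median log2 fold change of 0.92. MMP2, a matrix metalloprotease gene, went from 0.319, 0.398 and 0.388 to 4.90, 4.15 and 4.95 TPM (log2 3.77 ± 0.18). COL1A1 went from 13.0, 13.5 and 13.9 to 121, 126 and 118 TPM (3.30 ± 0.06), and COL3A1 rose from 4 to 5 reads per library to 26 to 39 reads (2.78 ± 0.28). CDH2, the N-cadherin gene, was already at 216, 218 and 228 TPM in control and reached 393, 436 and 434 TPM (1.05 ± 0.05). CDH1, in contrast, was at most 0.0889 TPM in any library, so N-cadherin was by far the more abundant of these cadherin transcripts in both groups. S100A4 fell (-0.77 ± 0.23), a call lost with DESeq2 and without control replicate 1 or 3, and CDH11 had 0 reads.

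**Figure D4:**
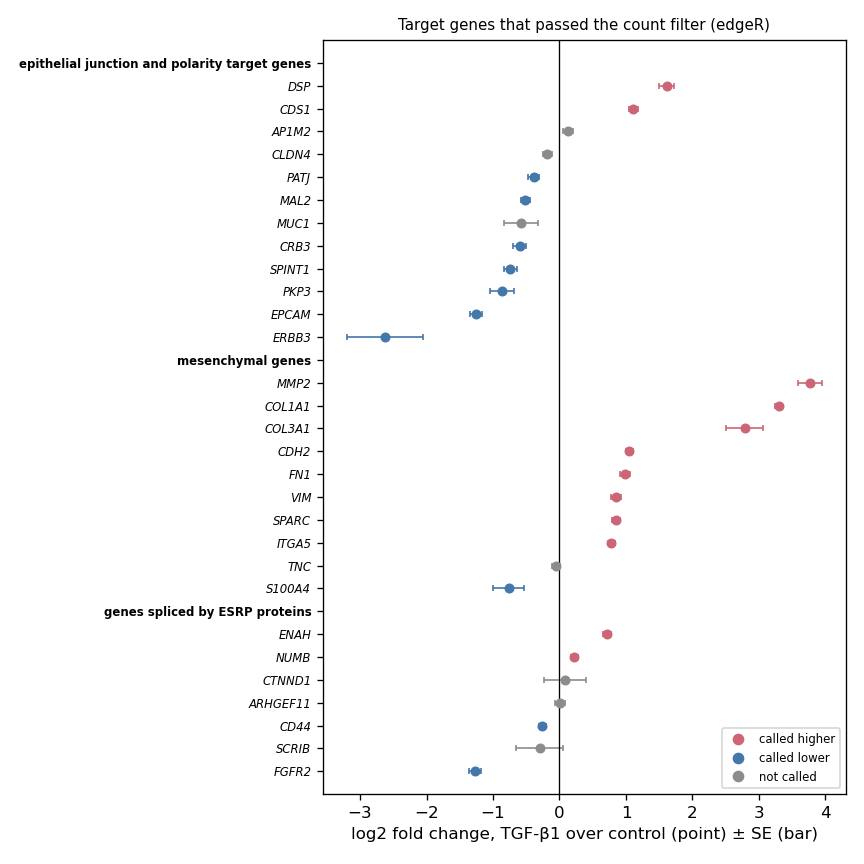
Fitted log2 fold change (x axis, TGF-b1 over control) with its SE (bar) for the tested junction and polarity genes, mesenchymal genes and genes spliced by ESRP proteins; red marks genes called higher, blue lower and grey not called at an edgeR adjusted p under 0.05. Most junction genes lie left of 0 with DSP and CDS1 to the right, and MMP2 and COL1A1 lie farthest to the right.

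Partners of the Snail and ZEB repressors were read as well. Of 13 corepressor genes 12 were tested, 4 rose and 1 fell, none of them 2-fold, with a median log2 fold change of 0.14, so the number called was near the 44.3% of all genes. The deacetylase genes HDAC1 (0.49) and HDAC2 (0.25), the demethylase gene KDM1A (0.31) and CTBP2 (0.18) rose, and AJUBA, a LIM protein that binds Snail, fell (-0.71). CTBP2 shares 3416 exonic bases with ZRANB1 on the other strand, and its call was lost with total-count scaling. Without TGF-b1 replicate 1, 9 of the corepressor genes were called in place of 5.

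Snail protein is short-lived, and 14 genes that act on its turnover or activity were all tested. Of these 2 rose and 4 fell, with a median log2 fold change of -0.09, which is also near the 44.3% called over all genes. The ubiquitin ligase genes FBXO45 (0.38) and FBXO11 (0.27, lost with total-count scaling) rose, while the ligase gene FBXL14 (-0.74), AXIN2 (-0.85), PRKD1 (-0.81) and LATS2 (-0.24) fell. The kinase gene GSK3B (0.04) and the ligase gene BTRC (-0.10), which mark Snail for degradation, were not called. Protein was not measured. Genes of the corepressor and turnover lists are named here to complete their counts, after their values were seen.

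Among 6 noncoding partners, ZEB1-AS1 (-0.15 ± 0.15) and SNAI3-AS1 (0.01 ± 0.20) were tested and neither was called by edgeR, with adjusted p-values of 0.445 and 0.976. MIR200CHG, the host of microRNAs that repress ZEB1 and ZEB2, had 1 read in all, and MIR205HG had 23 control and 16 TGF-b1 reads, a ratio of 0.640 (95% exact interval 0.316 to 1.26). Mature microRNAs were not measured.

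The genes whose profile over the 6 libraries was most like each called gene were found by Pearson r of log2 CPM among 10718 genes (10719 for GRHL1). For SNAI1 they were ATP13A2 (r = 0.9997) and KDELR3 (0.9997), and for SNAI2 EFNB1 (0.997) and B3GALT6 (0.994). For ZEB2 they were NAB1 (0.997) and SPCS3 (0.995), and for TWIST1 SMARCE1 (0.998) and PLBD2 (0.998). For GRHL1 they were TEAD4 (0.997) and DCAF4 (0.989), and for ESRP2 TMCO4 (0.9999) and RPS6KL1 (0.999). The libraries form 2 groups that these genes separate, so each r mostly restates the difference between the groups.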

How the data were processed

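The 6 tables, 1 per library, list the same gene entries. Per the labels, total RNA was enriched with oligo(dT) and made into cDNA libraries, and the submitters' processing notes name CASAVA, featureCounts 2.0.1, DESeq2 1.16.1 and hg38. The aligner, its settings and strand handling are not given in the sources used here. The deposited counts are unnormalized reads per gene, and the authors also deposited TPM and FPKM per gene in the same tables. TPM was used for levels between genes, and FPKM in its place for the paralog ratios as an alternative. Broken records, 7 in each file, were rejoined. The 598 entries without a name, with 0.396% to 0.464% of the counts, were left out, and 4519 named entries on alternate contigs were kept as separate entries.

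Counts were tested with edgeR 4.0.16 (R 4.3.3): TMM scaling, filterByExpr with a minimum count of 10, a quasi-likelihood fit of the 2 groups, and Benjamini-Hochberg adjustment over all genes tested, called at 0.05. The fits of counts were tested on simulated counts, and the other steps were not. CPM values are TMM-scaled. Ratios of low counts are scaled by the total counts of named entries, without TMM factors. They carry exact 95% intervals, which cover counting error only, since PCR reads without molecular identifiers are not independent molecules. Permutation tests were exact and two-sided and cannot go below 0.1. No libraries of a group were duplicates: their counts differed by a chi-square of at least 4.33 per degree of freedom.

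The 10 genes and all lists were chosen with earlier results of these data known. Named were all 10 genes, called list members with a log2 fold change of at least 1 and groups that did not overlap (at most 4 per list and direction), any member of a list of 8 or fewer, the 2 genes of most similar profile among those with a mean CPM of at least 5, and the treatment check genes. Others are named to complete small counts, after their values were seen. A few list genes are not reported here by name. Motifs were searched in RefSeq promoter windows (GRCh38.p14). Alternatives were DESeq2 1.42.0, limma-voom (limma 3.58.1), other scalings and filters, summed entries, the replicate number as a block, and each library left out in turn.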

Additional observations from a re-analysis of the deposited data

How the results depend on the processing

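SNAI1, GRHL1 and ESRP2 kept their call and direction in every alternative run. Over the alternatives that leave out no library, 53 of 56 values of the tested genes among the 10 kept their side of the threshold and 3 lost it: SNAI2 with total counts (0.26), and TWIST1 with DESeq2 (-0.31) and with all genes that had a count (-0.30). Leaving out 1 library changed 10 of 42 values, 9 of them to a lost call and 1, ZEB1, to a call, and no direction turned. The 10 genes gave between 3 and 7 calls with 1 library left out, in place of 6, with 3 without control replicate 3. The corepressor list gave 4 to 9 calls and the splicing regulator list 1 to 5. For the called genes of the other lists, 12 of 318 values lost their call with 1 library left out and 6 of 419 under the other alternatives. Both totals also include the values of ZEB1-AS1, which was not called. The sources used here do not state that the replicate numbers in the titles pair the samples. Same-numbered libraries had deviations correlated at 0.11, -0.01 and 0.08, and other pairs of libraries at -0.15 to 0.09. With 3 libraries per group, these correlations cannot decide whether the samples were paired. With the number as a replicate block, 6790 genes were called in place of 6582, and 2 of the 10 genes were higher and 4 lower, as without it. Precision is limited by depth for ESRP1, GRHL2, OVOL1 and CDH1.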
